A study of Mus musculus with 12 samples.

Results

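This report describes the genes for collagen chains in mouse gingiva. Members were every gene of the count table whose mouse gene symbol reads Col, a number, a and a number, after the table's Ensembl identifiers had been matched to GENCODE release M21. That rule found 44 genes among the 21965 of the table. The rule reads symbols alone.

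The study placed a silk ligature around a maxillary molar and took the gingiva around it after 8 days, beside gingiva of naive mice that carried no ligature. WT mice were C57BL/6 by the labels and C57BL/6J by the study's methods, and the mutant was Cybb-/-, written CybbKO here, with a disrupted gene for the catalytic subunit of the phagocyte NADPH oxidase Nox2. Each genotype had 3 ligated and 3 naive libraries, and the series' design text gives 3 mice matched for age and sex per group. All mice were under 12 weeks old by the labels and the labels name no allele restricted to a cell type. The p-values measure only the spread between these libraries.

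A collagen molecule is a triple helix of chains that fold together in the endoplasmic reticulum, and the class of a collagen says what the molecules build. Fibrillar collagens form the tensile fibres of the gingival lamina propria and periodontal ligament, type IV collagens form the basement membrane, type VI forms beaded filaments around cells, and FACIT collagens sit on fibril surfaces. Network collagens form lattices, transmembrane collagens are anchored in the cell membrane, and multiplexins are basement membrane zone proteoglycans. Fibroblasts make most of the interstitial chains, while basal keratinocytes make the anchoring chains of types XVII and VII.

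The members fell into 11 fibrillar chains, 6 basement membrane chains, 6 beaded filament chains, 3 network chains, 9 FACIT chains, 4 transmembrane chains, 2 multiplexins, the anchoring fibril chain Col7a1, and 2 others, Col26a1 and Col28a1. The low-count filter left 41 of the 44, and Col9a1, Col9a2 and Col19a1 stayed below it. The libraries held 27958819 to 42613423 counts each, of which collagen chains took 0.225% to 1.40%. Levels are CPM, counts scaled to a common library total, with TMM factors that correct for composition, and levels of different genes are compared only as CPM per kilobase of exon. Cybb stood at 4.19 to 15.2 CPM in WT libraries and at 41.6 to 63.7 CPM in those labelled CybbKO, so the targeted gene was higher where the label names its loss, and every genotype difference here is one between libraries so labelled. Replicate 2 of the ligated libraries labelled CybbKO held the lowest value of its group in 28 of the 41 members, and collagen took 0.575% of its counts against 1.40% and 1.25% in the other libraries of that group. Naive WT replicate 1 was lowest in 33 members and naive CybbKO replicate 2 in 31.

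Genome position paired several members. Col4a1 and Col4a2, the chains of the common type IV collagen, lie head to head on chromosome 8 and overlap by 22 bases at their starts. Col4a4 and Col4a3 lie head to head on chromosome 1 with 71 bases between them, and Col4a6 and Col4a5 head to head on chromosome X with 1308 bases between them. Col3a1 and Col5a2 lie tail to tail on chromosome 1 with 24614 bases between them. The study's methods give counting by reverse strand with featureCounts, while the submitters' notes list HTSeq, so it is not settled here that the deposited counts kept overlapping genes apart by strand. RefSeq promoter windows of 250 bases before and 50 bases after a start, on GRCm38, were found for 35 of the 44 members. The windows of 6 members are shown, because the divergent type IV pairs, the most abundant fibrillar chain and the chain that fell carry the results given afterwards. Capitals mark matches on either strand to the TATA box (letters TATAAA), the CCAAT box (its own name spells it) and the GC box (letters GGGCGG).
Col4a1, chr8:11312777-11313076, minus strand: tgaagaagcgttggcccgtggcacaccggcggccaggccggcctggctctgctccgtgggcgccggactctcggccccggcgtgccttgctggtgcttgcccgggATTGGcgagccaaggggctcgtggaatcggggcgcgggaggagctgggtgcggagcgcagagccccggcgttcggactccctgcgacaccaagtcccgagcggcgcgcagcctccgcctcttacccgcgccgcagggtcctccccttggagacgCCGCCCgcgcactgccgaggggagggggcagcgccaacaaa
Col4a2, chr8:11312555-11312854, plus strand: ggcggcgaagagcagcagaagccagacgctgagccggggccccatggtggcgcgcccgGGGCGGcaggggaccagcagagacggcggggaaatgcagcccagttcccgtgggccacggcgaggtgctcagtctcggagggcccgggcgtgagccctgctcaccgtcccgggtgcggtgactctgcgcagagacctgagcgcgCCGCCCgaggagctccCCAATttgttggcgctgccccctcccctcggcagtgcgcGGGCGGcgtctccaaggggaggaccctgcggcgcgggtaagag
Col4a5, chrX:141475169-141475468, plus strand: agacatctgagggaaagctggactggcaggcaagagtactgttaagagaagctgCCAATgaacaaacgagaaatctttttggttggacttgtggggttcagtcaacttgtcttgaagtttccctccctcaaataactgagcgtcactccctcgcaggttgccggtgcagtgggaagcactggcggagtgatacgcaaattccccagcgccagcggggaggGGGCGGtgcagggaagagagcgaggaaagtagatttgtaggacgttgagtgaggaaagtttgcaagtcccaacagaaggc
Col4a6, chrX:141474027-141474326, minus strand: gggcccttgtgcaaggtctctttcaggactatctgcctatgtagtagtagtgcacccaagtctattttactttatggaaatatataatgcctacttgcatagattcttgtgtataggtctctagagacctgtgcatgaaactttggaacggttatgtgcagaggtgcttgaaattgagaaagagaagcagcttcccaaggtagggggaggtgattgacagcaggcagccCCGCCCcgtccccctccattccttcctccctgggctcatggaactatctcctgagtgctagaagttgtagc
Col3a1, chr1:45311288-45311587, plus strand: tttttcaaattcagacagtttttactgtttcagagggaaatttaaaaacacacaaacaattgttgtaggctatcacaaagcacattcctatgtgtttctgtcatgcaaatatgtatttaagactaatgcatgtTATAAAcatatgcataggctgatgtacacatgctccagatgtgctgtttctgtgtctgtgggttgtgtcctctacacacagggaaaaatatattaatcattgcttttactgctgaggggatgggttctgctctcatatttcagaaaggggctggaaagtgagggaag
Col17a1, chr19:47691993-47692292, minus strand: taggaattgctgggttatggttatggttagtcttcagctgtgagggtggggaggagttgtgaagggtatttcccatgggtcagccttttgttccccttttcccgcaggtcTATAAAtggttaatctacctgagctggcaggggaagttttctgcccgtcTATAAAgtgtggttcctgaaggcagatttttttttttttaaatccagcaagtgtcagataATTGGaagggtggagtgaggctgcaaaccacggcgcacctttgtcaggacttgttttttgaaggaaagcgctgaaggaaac

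The Col4a1 and Col4a2 windows shared 78 of their 300 bases, and GC content was 74% and 73.7%. Neither held a TATA box, while Col3a1, with 37.7% GC, held 1 and no GC box, and Col17a1, with 46.3% GC, held 2 TATA boxes. GC boxes were in 22 of the 35 member windows, 62.9%, against 35.7% of 32851 windows in the RefSeq table. TATA boxes were in 5 of 35, 14.3%, against 13.6% of all windows, and CCAAT boxes in 12, 34.3%, against 37.4%. An AP-1 site, searched as TGAGTCA on both strands, was in 1 window, 2.86%, that of Col6a1, against 5.2% of all windows. Members had 1 window each, that nearest the start of the gene, while all windows were taken from the RefSeq table. The shares are therefore of unlike sets, and the Col4a1 and Col4a2 windows share 1 GC box. Matches were counted anywhere in a window, at no set distance from the start. They describe letters in the windows and were not tested for binding.

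Ligature placement was followed by higher levels of most collagen chains. In the comparison of ligated with naive gingiva averaged over genotypes, 30 of the 41 members tested passed an adjusted p of 0.05 in edgeR, 29 of them higher and 1, Col17a1, lower. Over all 15046 genes tested the same comparison called 24.4%, 14.7% higher and 9.66% lower. The median log2 fold change was 1.43 over the members and -0.03 over all genes tested, and 39 of 41 members had a value above 0 against 46.1% of all genes. Of the 41, 24 stood higher in each of the 6 ligated libraries than in each of the 6 naive ones, against 6.73% of all genes, and Col17a1 alone stood lower in this way, against 4.31%. Leaving out each of the 12 libraries in turn kept 27 of the 30 calls. The others were Col6a4, Col16a1 and Col18a1, called in 4, 3 and 4 of the 12 fits, with adjusted p up to 0.103, 0.121 and 0.0823 in the rest. Fewer cells of a type and less RNA per cell cannot be told apart in tissue RNA, here and in every comparison that follows.

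Within each genotype the counts were smaller. In WT mice 14 members rose and 0 fell, against 3.2% of all genes called, 2.31% higher and 0.884% lower, with a member median of 1.04. In the libraries labelled CybbKO 23 rose and Col17a1 fell, against 13% of all genes called, 9.95% higher and 3.04% lower, with a median of 1.53. Values above 0 were held by 39 members in WT, against 46.7% of all genes, and by 38 in CybbKO, against 46.2%. The risen members were 6 fibrillar, 3 basement membrane, 1 beaded filament, 1 FACIT, 2 transmembrane and 1 other chain in WT, and 9 fibrillar, 3 basement membrane, 3 beaded filament, 2 network, 2 FACIT, 2 transmembrane, 1 multiplexin and 1 other chain in CybbKO. Both sets shared 12, 85.7% of the 14 and 52.2% of the 23. Libraries did not overlap, with ligated higher, for 28 members in WT against 13.3% of all genes, and for 29 members in CybbKO against 18.5%. They did not overlap, with ligated lower, for Col17a1 in each genotype, against 11.6% and 12.8% of all genes. DESeq2 called 20 of the 41 members in WT, against 8.97% of all genes it tested, and 30 in CybbKO, against 17.9%. The WT count moved with the libraries: it was 6, 1 and 3 without ligated WT replicate 1, 2 or 3, 2 and 1 without naive WT replicate 1 or 2, 7 and 8 without ligated CybbKO replicate 1 or 3, and 8 and 9 without naive CybbKO replicate 1 or 3. It was 19 without ligated CybbKO replicate 2, 14 without naive WT replicate 3 and 11 without naive CybbKO replicate 2. Of the 14 without naive WT replicate 3, 10 were among the main 14. Of the 11 without naive CybbKO replicate 2, 10 were. Col11a1 kept its WT call in all 12 of these fits, and the other 13 lost theirs in at least 1. In CybbKO 19 of the 24 calls were kept in all 12 fits, and Col4a4, Col14a1, Col17a1, Col24a1 and Col28a1 lost theirs in at least 1, with the highest adjusted p between 0.0618 for Col28a1 and 0.162 for Col17a1. The plot of change by class sets both genotypes side by side.

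**Figure D1:**
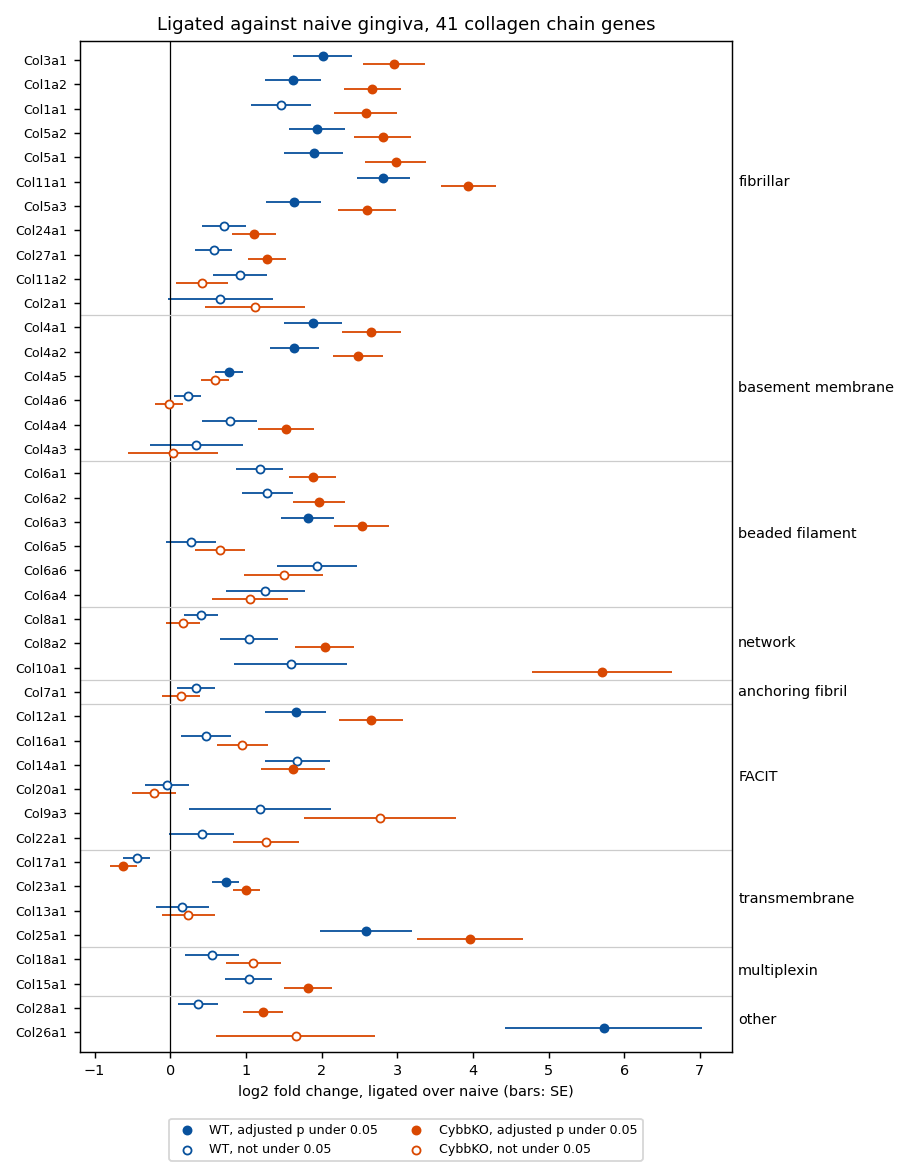
Log2 fold change of ligated over naive gingiva for the 41 members tested, by class, in WT (blue) and in libraries labelled CybbKO (orange), with SE bars; filled points passed an edgeR adjusted p of 0.05. Most chains lie to the right of 0, with the type XI chain Col11a1 at 2.81 and 3.94 and Col17a1 at -0.44 and -0.62.

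Of the fibrillar class, 9 of 11 members rose in the averaged comparison, 6 in WT and 9 in CybbKO, against 14.7%, 2.31% and 9.95% of all genes called higher, with a class median of 2.11 on the log2 scale. Type III collagen, a homotrimer of Col3a1 that is abundant in young and healing connective tissue, had the highest mean level per length of all members in ligated tissue, 238 CPM per kilobase (SD 44.7, n = 3) in WT and 278 (SD 142, n = 3) in CybbKO. In naive tissue it stood at 58.8 (SD 20.3) and 35.8 (SD 7.15) CPM per kilobase, below Col17a1. Col3a1 had 1932, 2263 and 2801 CPM in the ligated WT libraries and 386, 562 and 783 CPM in the naive WT ones. In those labelled CybbKO it was at 3771, 1152 and 3267 CPM ligated and 425, 285 and 344 CPM naive. The lowest ligated library, CybbKO replicate 2, was still above the highest naive one. Col3a1 rose by 2.49 on the log2 scale (SE 0.28, edgeR adjusted p = 0.000277).

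Type I collagen, the main fibre of gum, ligament and bone, is built of Col1a1 and Col1a2. Col1a1 had 764, 874 and 1313 CPM in the ligated WT libraries and 239, 310.4 and 519 CPM in the naive WT ones. Ligated CybbKO libraries held 1667, 819 and 1451 CPM of Col1a1, and naive ones 318, 120.0 and 219.5 CPM. Ligated and naive libraries did not overlap. Its averaged rise was 2.02 (SE 0.29, edgeR adjusted p = 0.000752), while in WT alone the value of 1.47 missed the threshold at an adjusted p of 0.0685, passed in DESeq2. Col1a2 had 1524, 1778 and 2602 CPM in the ligated WT libraries and 519.5, 625 and 772 CPM in the naive WT ones. Libraries labelled CybbKO had 3262, 1202 and 3116 CPM with the ligature and 537, 282 and 370.4 CPM without it. Its libraries did not overlap either, and its averaged rise was 2.15 (SE 0.26, edgeR adjusted p = 0.000373). The ratio of Col1a1 to Col1a2 counts ran from 0.466 to 0.681 in ligated and from 0.426 to 0.672 in naive libraries, so the ranges overlapped.

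**Figure D2:**
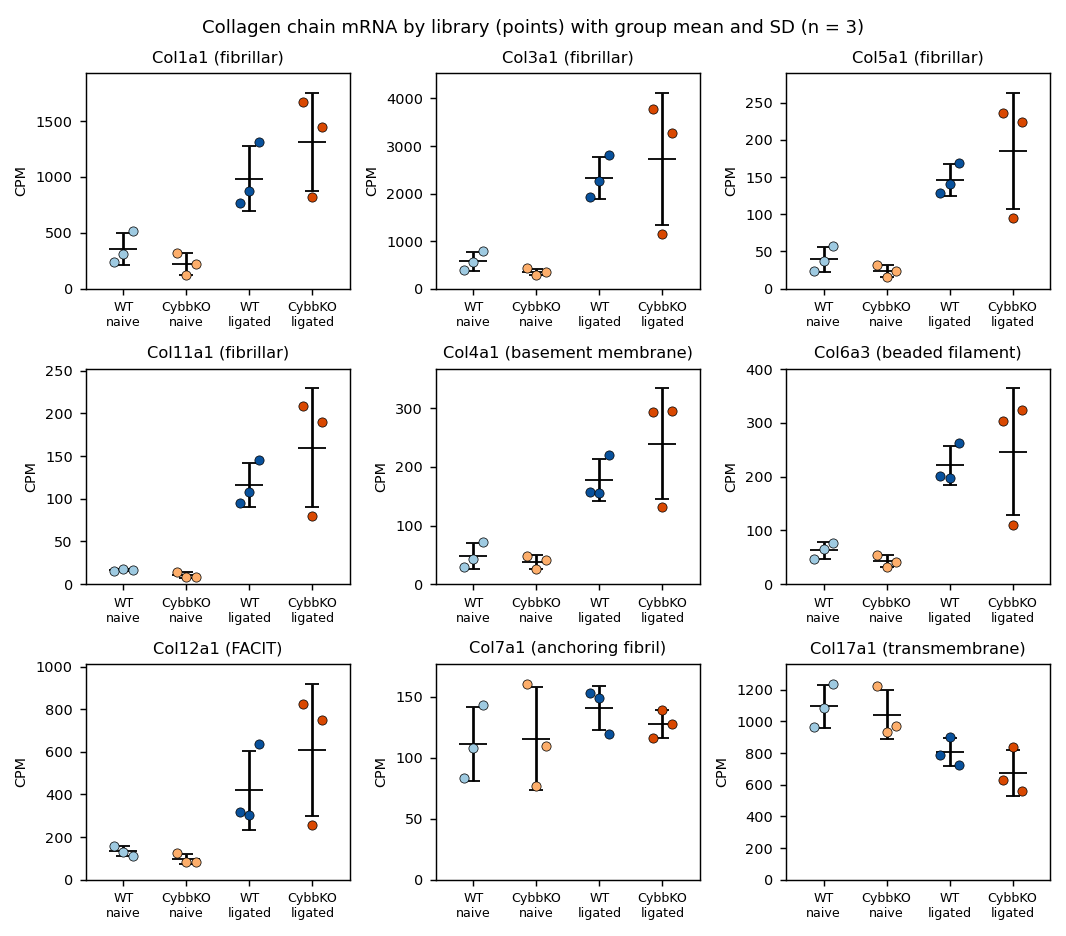
CPM with TMM scaling of 9 members in each library (points), with the group mean (bar) and SD (n = 3); each panel has its own axis from 0. For Col1a1, Col3a1, Col5a1, Col11a1, Col4a1, Col6a3 and Col12a1 all ligated points lie above all naive points, Col7a1 overlaps, and Col17a1 lies lower in ligated tissue.

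Types V and XI are minor fibrillar collagens that copolymerize with type I and II and set fibril diameter. Col5a1 had 128, 140.2 and 169 CPM in the ligated WT libraries and 23.4, 37.2 and 57.3 CPM in the naive WT ones. In those labelled CybbKO it was at 236, 95.1 and 224 CPM ligated and 31.6, 15.1 and 23.8 CPM naive. Its groups were fully apart by ligature, and it rose by 2.44 (SE 0.28, edgeR adjusted p = 0.000291). Col5a2 had 268, 310.1 and 389 CPM in the ligated WT libraries and 71.4, 80.6 and 100.5 CPM in the naive WT ones. Ligated CybbKO libraries held 549, 165 and 553 CPM of Col5a2, and naive ones 71.8, 49.7 and 59.7 CPM. It rose by 2.37 (SE 0.26, edgeR adjusted p = 0.000262), again with no overlap. Col5a3 had 36.8, 33.2 and 43.7 CPM in the ligated WT libraries and 7.10, 11.3 and 18.4 CPM in the naive WT ones. Libraries labelled CybbKO had 63.4, 30.8 and 60.6 CPM with the ligature and 10.3, 5.33 and 9.88 CPM without it. Ligated levels of Col5a3 were all above naive ones, and it rose by 2.11 (SE 0.26).

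Col11a1, a type XI chain known from cartilage that also pairs with type V chains, had the smallest adjusted p of the members. It had 95.5, 108 and 145 CPM in the ligated WT libraries and 14.9, 18.2 and 16.5 CPM in the naive WT ones. In those labelled CybbKO it was at 209, 79.97 and 190.1 CPM ligated and 14.7, 7.82 and 8.63 CPM naive. The lowest ligated value, 80.0 CPM, lay far above the highest naive value, 18.2 CPM. Col11a1 rose by 3.38 on the log2 scale in the averaged comparison (SE 0.25, edgeR adjusted p = 6.2e-05), by 2.81 in WT (adjusted p = 0.00491) and by 3.94 in CybbKO (adjusted p = 0.000951). Its partner Col11a2 had 2.05 to 4.73 CPM in ligated and 1.07 to 2.99 CPM in naive libraries and was not called (averaged value 0.67, edgeR adjusted p = 0.0693), though it was in DESeq2 and in the fit scaled by library size alone. The ratio of Col11a1 to Col11a2 counts was 21.7 to 92.6 in ligated and 2.89 to 14.0 in naive libraries, with no overlap. The ratio of Col11a1 to Col5a1 counts was 0.745 to 0.883 in ligated and 0.288 to 0.636 in naive libraries.

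Among the rarer fibrillar chains, Col24a1 and Col27a1 are developmental collagens of bone and cartilage, and Col2a1 is the main chain of cartilage. Col24a1 stood at 14.7, 12.98 and 17.4 CPM in ligated WT, 16.9, 8.53 and 19.5 in ligated CybbKO, 9.93, 11.04 and 6.52 in naive WT and 7.76, 6.49 and 6.59 in naive CybbKO libraries. For Col27a1 the ligated libraries had 14.1, 16.7 and 14.9 CPM in WT and 22.5, 13.9 and 22.6 in CybbKO, and the naive ones 9.62, 10.5 and 10.6 in WT and 10.4, 5.33 and 8.63 in CybbKO. Both rose in the averaged comparison, by 0.91 (SE 0.20) and 0.93 (SE 0.17), and in CybbKO, and neither passed in WT (adjusted p = 0.192 and 0.216). Naive and ligated values of Col24a1 overlapped, and those of Col27a1 did not. Col2a1 was near the floor, at 0.182 to 1.44 CPM in ligated and 0.183 to 0.729 CPM in naive libraries, and was not called. Of 7 chondrocyte markers 5 were tested, and 3, Acan, Hapln1 and Cnmd, were called higher, against 14.7% of all genes, while Matn1 had no count in any ligated library, and the 7 markers together summed to 13.6 to 23.2 CPM in ligated and 9.03 to 25.1 CPM in naive libraries. Their part in the values of Col11a1, Col10a1 and type IX chains was not tested.

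In the basement membrane class 4 of 6 chains rose, against 14.7% of all genes, and they are given by head-to-head pair. Col4a1 had 157, 156 and 219.7 CPM in the ligated WT libraries and 29.4, 42.4 and 72.5 CPM in the naive WT ones. Ligated CybbKO libraries held 294, 131 and 295 CPM of Col4a1, and naive ones 47.96, 24.99 and 41.1 CPM. Col4a2 had 95.3, 101.3 and 129.5 CPM in the ligated WT libraries and 22.5, 30.96 and 51.4 CPM in the naive WT ones. Both genes of this pair stood higher in every ligated library than in every naive one. Libraries labelled CybbKO had 176, 98.1 and 169.9 CPM with the ligature and 34.5, 18.5 and 26.8 CPM without it. They rose by 2.27 (SE 0.27, edgeR adjusted p = 0.000338) and 2.06 (SE 0.23, edgeR adjusted p = 0.000273), in each genotype as well. The ratio of Col4a1 to Col4a2 counts was 1.33 to 1.73 in ligated and 1.30 to 1.53 in naive libraries, so the ranges overlapped.

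Col4a5 and Col4a6, whose proteins share a type IV network of epithelial basement membranes, had unlike calls. Col4a5 stood at 28.8, 28.9 and 19.3 CPM in ligated WT, 24.3, 24.02 and 18.4 in ligated CybbKO, 12.8, 14.9 and 17.3 in naive WT and 14.1, 16.01 and 14.2 in naive CybbKO libraries. For Col4a6 the ligated libraries had 22.1, 17.9 and 15.2 CPM in WT and 12.98, 15.9 and 10.3 in CybbKO, and the naive ones 15.6, 14.96 and 16.6 in WT and 14.1, 13.1 and 12.5 in CybbKO. Col4a5 rose by 0.68 (SE 0.13, edgeR adjusted p = 0.00394), and its ligated libraries were all above the naive ones, while Col4a6 had a value of 0.10 (SE 0.13, edgeR adjusted p = 0.592) with overlap. The ratio of Col4a5 to Col4a6 counts was 1.27 to 1.87 in ligated and 0.824 to 1.23 in naive libraries, with no overlap. Col4a3 and Col4a4, known from the glomerulus, were both rare. Col4a4 stood at 0.622, 0.654 and 0.934 CPM in ligated WT, 0.835, 0.802 and 0.890 in ligated CybbKO, 0.365, 0.443 and 0.474 in naive WT and 0.144, 0.388 and 0.335 in naive CybbKO libraries. Col4a4 rose by 1.16 (SE 0.26, edgeR adjusted p = 0.00774) with no overlap between ligated and naive libraries, at below 1 CPM throughout. Col4a3 lay at 0.261 to 0.535 CPM in ligated and 0.139 to 0.915 CPM in naive libraries and was not called.

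**Figure D3:**
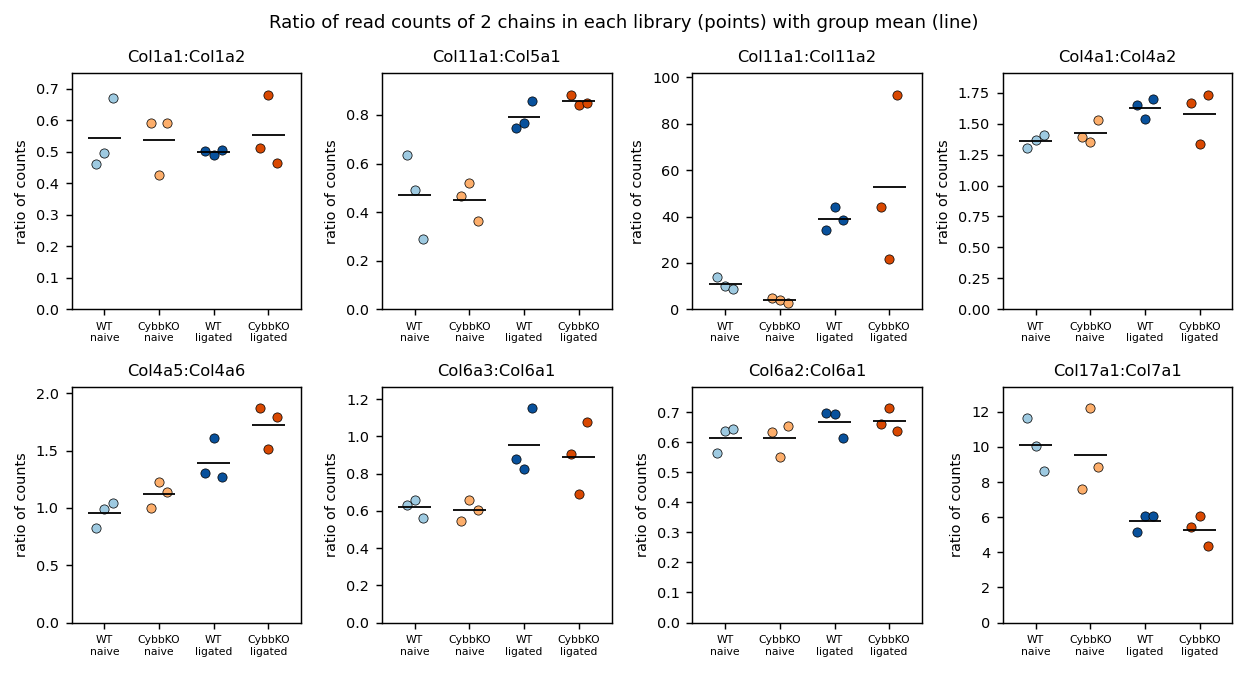
Ratio of read counts of 2 chains in each library (points) with the group mean (line), each axis starting at 0 and not corrected for gene length. Col11a1:Col11a2, Col11a1:Col5a1, Col4a5:Col4a6 and Col6a3:Col6a1 are higher and Col17a1:Col7a1 lower in all ligated than in all naive libraries. Col1a1:Col1a2, Col4a1:Col4a2 and Col6a2:Col6a1 overlap.

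Type VI collagen, whose Col6a1, Col6a2 and Col6a3 chains assemble into filaments that tie cells to the fibres, rose in all 3 of these chains. Col6a1 had 229.6, 240.1 and 228 CPM in the ligated WT libraries and 73.7, 97.9 and 137 CPM in the naive WT ones. In those labelled CybbKO it was at 335, 159 and 301 CPM ligated and 99.2, 49.2 and 67.7 CPM naive. Col6a2 had 159.6, 166 and 140.3 CPM in the ligated WT libraries and 41.4, 62.5 and 87.8 CPM in the naive WT ones. Ligated values of both were above all naive ones. Ligated CybbKO libraries held 221, 113 and 191 CPM of Col6a2, and naive ones 62.9, 27.1 and 44.3 CPM. Col6a3 had 201, 198 and 263 CPM in the ligated WT libraries and 46.7, 64.6 and 77.1 CPM in the naive WT ones. Libraries labelled CybbKO had 304, 110.1 and 324 CPM with the ligature and 54.3, 32.5 and 40.8 CPM without it. Their averaged rises were 1.53 (SE 0.22), 1.63 (SE 0.24) and 2.17 (SE 0.25), with edgeR adjusted p of 0.000821, 0.000907 and 0.000299. In WT alone Col6a3 passed, at 1.82 (adjusted p = 0.0248), while Col6a1 and Col6a2 were at 1.18 and 1.28 (adjusted p = 0.0623 and 0.0612). DESeq2, scaling by library size alone and the fit of only the 6 WT libraries called Col6a1 and Col6a2 in WT. The ratio of Col6a3 to Col6a1 counts was 0.692 to 1.15 in ligated and 0.547 to 0.660 in naive libraries, without overlap, whereas that of Col6a2 to Col6a1 ran from 0.614 to 0.713 and from 0.550 to 0.655.

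Col6a4, Col6a5 and Col6a6, alternative partners of Col6a1 and Col6a2, lie in tandem on chromosome 9. Col6a6 stood at 3.14, 4.95 and 1.79 CPM in ligated WT, 2.58, 2.43 and 1.62 in ligated CybbKO, 0.396, 0.664 and 1.53 in naive WT and 1.24, 0.583 and 0.518 in naive CybbKO libraries. Col6a6 rose by 1.72 (SE 0.37, edgeR adjusted p = 0.00708), and its lowest ligated library was above its highest naive one. For Col6a4 the ligated libraries had 1.12, 1.18 and 1.84 CPM in WT and 1.54, 0.776 and 2.62 in CybbKO, and the naive ones 0.457, 0.791 and 0.474 in WT and 0.952, 0.333 and 1.098 in CybbKO. Col6a4 was called in the averaged comparison at 1.16 (SE 0.36, edgeR adjusted p = 0.0367) although its libraries overlapped, and it lost the call in 8 of the 12 fits with 1 library left out. Col6a5 was at 7.76 to 22.7 CPM in ligated and 9.10 to 12.2 CPM in naive libraries, with an averaged value of 0.46 (edgeR adjusted p = 0.174).

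Of the network chains, Col8a1 and Col8a2 build the lattice of vessels and cornea, and Col10a1 marks hypertrophic cartilage. Col8a1 stood at 104, 120.2 and 75.4 CPM in ligated WT, 88.3, 71.5 and 117 in ligated CybbKO, 85.6, 75.5 and 64.7 in naive WT and 76.5, 103 and 66.3 in naive CybbKO libraries. Col8a1 was not called (averaged value 0.29, SE 0.16, edgeR adjusted p = 0.212), and its ligated and naive libraries overlapped. For Col8a2 the ligated libraries had 16.2, 24.99 and 18.8 CPM in WT and 35.3, 12.97 and 28.4 in CybbKO, and the naive ones 8.56, 9.87 and 10.8 in WT and 9.70, 3.55 and 5.40 in CybbKO. Col8a2 rose by 1.54 (SE 0.27, edgeR adjusted p = 0.00251), with every ligated library above every naive one. Col10a1 was rare, with 139 counts in the ligated and 2 in the naive libraries labelled CybbKO, a ratio per counted read of 60.2 with a 95% counting interval of 16.3 to 502. Col10a1 stood at 0.373, 0.419 and 0.415 CPM in ligated WT, 0.757, 1.93 and 0.867 in ligated CybbKO, 0, 0.285 and 0.109 in naive WT and 0.0289, 0.0277 and 0 in naive CybbKO libraries. It was called in CybbKO and in the averaged comparison (edgeR adjusted p = 0.00342 and 0.0016), and its fitted change depends on the prior count. It passed the low-count filter through its ligated libraries and was not tested where every library needed at least 10 counts. Col10a1 lies within Nt5dc1, a gene on the other strand. Counting intervals here cover counting error only.

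FACIT collagens were led by Col12a1, a chain of tension-bearing ligament and tendon. Col12a1 had 318, 304 and 635 CPM in the ligated WT libraries and 159, 128 and 112 CPM in the naive WT ones. In those labelled CybbKO it was at 823, 255 and 752 CPM ligated and 124, 82.6 and 83.8 CPM naive. Ligated libraries began at 255 CPM and naive ones ended at 159 CPM. Col12a1 rose by 2.16 (SE 0.29, edgeR adjusted p = 0.000605), and its WT call stood at the threshold, with an adjusted p of 0.05 and a call lost in 11 of the 12 fits with 1 library left out. Col14a1, a fibril-associated chain of mature dense tissue, also rose. Col14a1 stood at 29.8, 39.7 and 20.4 CPM in ligated WT, 35.4, 20.2 and 19.9 in ligated CybbKO, 4.90, 14.5 and 8.67 in naive WT and 4.56, 9.13 and 10.9 in naive CybbKO libraries. Its rise was 1.65 (SE 0.30, edgeR adjusted p = 0.0028), without overlap by ligature. For Col16a1 the ligated libraries had 48.2, 59.3 and 46.5 CPM in WT and 78.4, 48.8 and 55.3 in CybbKO, and the naive ones 23.1, 36.6 and 51.6 in WT and 43.9, 17.6 and 32.9 in CybbKO. Col16a1, which links fibrils to cells, was called at 0.71 (SE 0.24, edgeR adjusted p = 0.0475) with overlapping libraries, a call lost with DESeq2 size factors.

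Of the other FACIT chains, Col20a1, Col22a1 and Col9a3 were tested and not called, with averaged values of -0.13, 0.84 and 1.98 and edgeR adjusted p of 0.68, 0.0654 and 0.055. DESeq2 and the fit scaled by library size alone called Col22a1 and Col9a3 higher. Col20a1 lay at 2.35 to 4.81 CPM in ligated and 3.17 to 5.10 CPM in naive libraries, and Col22a1 at 0.946 to 1.82 and 0.277 to 1.23 CPM. Type IX collagen, a cartilage trimer of Col9a1, Col9a2 and Col9a3, was near the floor, with Col9a3 at 0.311 to 3.26 CPM in ligated and 0.122 to 1.06 CPM in naive libraries. Col9a1 had 27 ligated and 2 naive counts in WT, a ratio of 10.6 (95% counting interval 2.67 to 92.1), and 31 and 1 in CybbKO, a ratio of 26.8 (4.47 to 1094). Col9a1, left out of the edgeR test by the filter, was called higher in CybbKO and in the averaged comparison by DESeq2 (adjusted p = 0.0138 and 0.000596), by edgeR without the filter, and in 8 and 10 of the 12 fits with 1 library left out. Col9a2 had 15 and 7 counts in WT and 45 and 7 in CybbKO. Col19a1 had 10 and 0 counts in WT, where the 95% counting interval of the ratio starts at 1.76, and 1 and 0 in CybbKO.

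Col17a1 was the member that fell. It encodes the type XVII collagen of hemidesmosomes, by which basal keratinocytes hold on to the basement membrane, and in naive tissue it had the highest mean level per length of all members, 182 CPM per kilobase (SD 22.6, n = 3) in WT and 173 (SD 26.05, n = 3) in CybbKO. In ligated tissue its means of 134 and 113 CPM per kilobase were below those of Col3a1, Col1a2 and Col1a1. Col17a1 had 786, 904 and 727 CPM in the ligated WT libraries and 965, 1088 and 1237 CPM in the naive WT ones. Ligated CybbKO libraries held 632, 839 and 558 CPM of Col17a1, and naive ones 1222, 935 and 970.4 CPM. All ligated libraries were below all naive ones. The averaged change was -0.53 (SE 0.13, edgeR adjusted p = 0.0105), with -0.44 in WT (adjusted p = 0.192) and -0.62 in CybbKO (adjusted p = 0.0401). The CybbKO call was lost in 8 of the 12 fits with 1 library left out, and the averaged call in none. Of 8 basal keratinocyte markers 1, Krt15, was called lower, with a median of -0.32 over the list, and their summed level was 10573 to 14894 CPM in ligated and 10733 to 20445 CPM in naive libraries. Of 8 suprabasal markers of oral epithelium, which summed to 66722 to 127220 CPM over all libraries, 3 were called lower. Over all genes 9.66% were called lower. Their part in the change of Col17a1 was not tested.

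Col7a1, the anchoring fibril chain that fastens the same basement membrane to the connective tissue, did not pass. Col7a1 had 153, 149 and 119.8 CPM in the ligated WT libraries and 82.98, 108 and 143 CPM in the naive WT ones. Libraries labelled CybbKO had 116, 139 and 127 CPM with the ligature and 161, 76.5 and 109.7 CPM without it. Ligated and naive values overlapped. Its averaged value was 0.24 with a 95% interval of -0.15 to 0.62. The ratio of Col17a1 to Col7a1 counts was 4.38 to 6.07 in ligated and 7.61 to 12.2 in naive libraries, with no overlap.

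Of the other transmembrane chains, Col23a1 and Col25a1 rose. Col23a1 stood at 23.8, 23.5 and 24.1 CPM in ligated WT, 30.9, 25.6 and 28.95 in ligated CybbKO, 18.7, 12.5 and 11.8 in naive WT and 16.2, 13.4 and 13.02 in naive CybbKO libraries. Col23a1 rose by 0.87 (SE 0.12, edgeR adjusted p = 0.000802) in a narrow spread, with the ligated libraries all above the naive ones. For Col25a1 the ligated libraries had 1.44, 3.09 and 1.53 CPM in WT and 1.57, 0.990 and 2.14 in CybbKO, and the naive ones 0.609, 0.126 and 0.255 in WT and 0.0289, 0.0555 and 0.213 in CybbKO. Col25a1, a neuronal and muscle chain, rose by 3.27 in the averaged comparison (SE 0.47, edgeR adjusted p = 8e-04). In CybbKO alone it rose by 3.96 (SE 0.71, adjusted p = 0.00501), on 10 naive and 191 ligated counts, a ratio of 16.5 (95% counting interval 8.80 to 35.0). It passed the low-count filter through its ligated libraries and was not tested where every library needed at least 10 counts. Col13a1 stood at 3.86, 4.11 and 6.90 CPM in ligated WT, 5.93, 3.69 and 4.36 in ligated CybbKO, 3.20, 3.76 and 6.38 in naive WT and 5.28, 2.61 and 3.96 in naive CybbKO libraries. Col13a1, a chain of cell adhesion sites, was not called (averaged value 0.20, edgeR adjusted p = 0.601).

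Both multiplexins, 2 of 2, were called higher in the averaged comparison, against 14.7% of all genes. Col15a1 stood at 59.3, 63.1 and 91.04 CPM in ligated WT, 129, 52.1 and 109.7 in ligated CybbKO, 26.4, 35.9 and 41.8 in naive WT and 31.6, 20.3 and 30.6 in naive CybbKO libraries. Col15a1 rose by 1.43 (SE 0.22, edgeR adjusted p = 0.00124). For Col18a1 the ligated libraries had 96.8, 101.5 and 91.8 CPM in WT and 142, 97.3 and 120.5 in CybbKO, and the naive ones 39.5, 69.3 and 89.6 in WT and 85.3, 27.5 and 55.1 in CybbKO. Col18a1, the precursor of endostatin, was called at 0.82 (SE 0.25, edgeR adjusted p = 0.0339), a call kept in 4 of the 12 fits with 1 library left out. Ligated libraries of both lay above all naive ones, for Col18a1 by 91.8 against 89.6 CPM, and Col18a1 overlaps Slc19a1 on the other strand. Of the chains outside these classes, Col28a1 is expressed around peripheral nerve. Col28a1 stood at 7.72, 7.04 and 6.15 CPM in ligated WT, 10.5, 5.13 and 8.88 in ligated CybbKO, 4.26, 6.70 and 5.21 in naive WT and 3.29, 3.86 and 3.32 in naive CybbKO libraries. It rose by 0.80 (SE 0.19, edgeR adjusted p = 0.00991) with overlapping libraries. For Col26a1 the ligated libraries had 0.647, 1.47 and 0.156 CPM in WT and 0.261, 0.107 and 0.297 in CybbKO, and the naive ones 0, 0.0316 and 0 in WT and 0.0289, 0 and 0.183 in CybbKO. Col26a1 was called in WT and in the averaged comparison, on 88 ligated against 1 naive count in WT, a ratio of 69.2 (95% counting interval 12.1 to 2762), and on 27 against 7 in CybbKO. It passed the low-count filter through ligated libraries and was not tested where every library needed at least 10 counts. Its WT call was kept in 4 of the 12 fits with 1 library left out.

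The makeup of the collagen transcripts is described with no test. Fibrillar chains took 65.1% to 72.0% of collagen counts in ligated WT, 61.4% to 73.5% in ligated CybbKO, 43.3% to 50.3% in naive WT and 34.3% to 40.2% in naive CybbKO libraries. Transmembrane chains, mostly Col17a1, took 7.29% to 11.3%, 4.88% to 14.9%, 27.6% to 33.3% and 34.9% to 41.9% in the same order. Both ranges were apart between ligated and naive tissue. Beaded filament and FACIT shares stayed within 3.95% to 8.24% in all groups. Summed over all members, collagen stood at 7347, 8280 and 10410 CPM in ligated WT and at 13333, 5818 and 12177 CPM in ligated CybbKO libraries. Naive libraries had 2963, 3604 and 4549 CPM in WT and 3559, 2270 and 2708 CPM in CybbKO, all below the ligated ones.

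**Figure D4:**
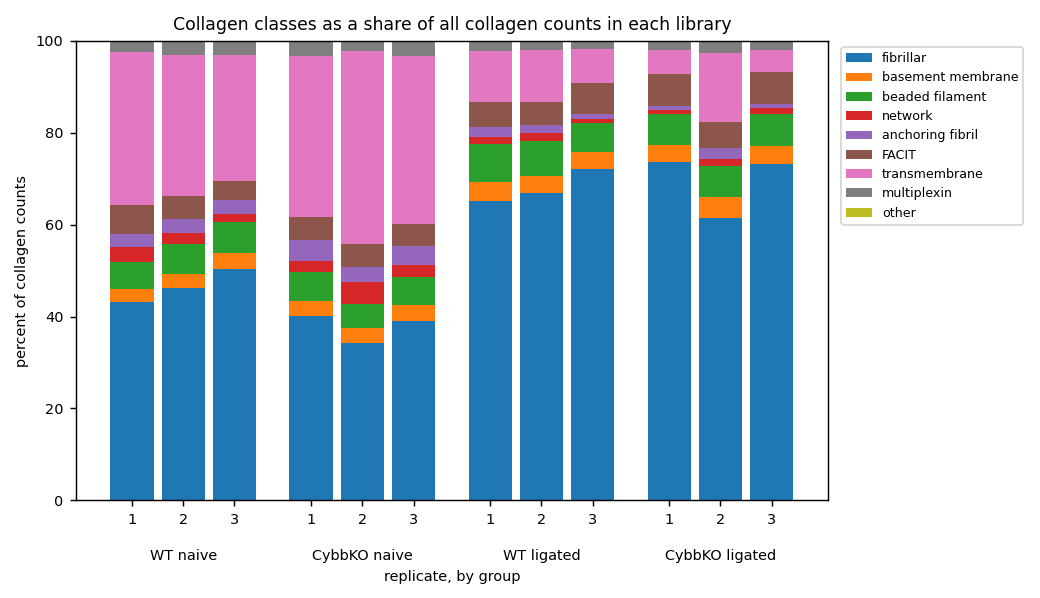
Share of all collagen counts taken by each class, in percent, for each of the 12 libraries, grouped by genotype and ligature. The fibrillar share is 34.3% to 50.3% in the 6 naive and 61.4% to 73.5% in the 6 ligated libraries, and the transmembrane share is the smaller in ligated tissue.

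Markers of several cell types moved in the same comparison. Over all genes 14.7% were called higher there. Fibroblast markers were called higher for 8 of 10 genes, with a summed level of 290.4 to 550.4 CPM in ligated and 176 to 270 CPM in naive libraries. All 9 endothelial markers and all 8 neutrophil markers were called higher. Endothelial markers summed to 248 to 388 CPM in ligated and 135 to 179 CPM in naive libraries. Osteoblast markers were called higher for 4 of 8 genes, at 63.0 to 186 CPM in ligated and 50.2 to 89.8 CPM in naive libraries, so these ranges overlapped. The tooth markers Dspp and Amelx had no count in any library. The summed fibroblast level of ligated CybbKO replicate 2 was the lowest of the 6 ligated libraries, as was its summed fibrillar level of 3571 CPM. What part these cells had in the collagen values was not tested.

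Genes that fold, process and bind collagen were read in the same fit. Of 21 genes for folding and secretion, 9 were called higher and 0 lower in the averaged comparison, with a list median of 0.33. The prolyl hydroxylases P4ha3 and P3h1 and the isomerase Fkbp14 had the smallest p, with log2 fold changes of 2.37, 1.28 and 1.72. Of 12 tested genes for processing and crosslinking, 9 were called higher, led by Lox at 3.35, Loxl2 at 2.31 and the procollagen peptidase Adamts2 at 1.92, and 1, Pcolce2, was called lower at -1.32. Fibril regulators were called higher for 9 of 11 genes, with Kera at 5.44, Postn at 2.04 and Sparc at 1.76. Collagen receptors were called higher for 7 of 9 tested, with Itga11 at 1.87, Ddr2 at 1.13 and Lair1 at 1.33, and collagen-degrading proteases for 6 of 6, with Mmp14 at 1.17, Ctsk at 2.45 and Mmp2 at 1.08. These counts stand beside 14.7% of all genes called higher and 9.66% lower.

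No member differed by genotype at an adjusted p of 0.05. Between ligated libraries labelled CybbKO and ligated WT ones, edgeR called 0 of 41 members, against 0.00665% of all genes, and DESeq2 called 0, against 0.112%. An unadjusted p under 0.05 was reached by Col4a6, at -0.50 (SE 0.18), and Col10a1, at 1.55 (SE 0.61), against 3.34% of all genes. The member median was 0.23 against 0.01 over all genes, with 29 of 41 values above 0 where 53.4% of all genes were. Libraries did not overlap, with CybbKO higher, for Col10a1 and Col23a1, against 5% of all genes, and with CybbKO lower for 0 members, against 2.84%. The member median moved with single libraries of the CybbKO group. It was 0.049 with 23 members above 0 without ligated CybbKO replicate 1, 0.44 with 30 above 0 without replicate 2 and 0.16 with 27 above 0 without replicate 3. The difference for Col3a1 was 0.23 (95% interval -0.60 to 1.05), for Col1a1 0.42 (-0.43 to 1.27), for Col4a1 0.43 (-0.37 to 1.24) and for Col17a1 -0.25 (-0.64 to 0.14). Fibroblast markers had a median of 0.27 with 10 of 10 above 0, endothelial markers 0.24 with 8 of 9 and neutrophil markers 1.31 with 7 of 8, and their part was not tested.

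In naive tissue edgeR and DESeq2 each called 0 of 41 members between genotypes, where edgeR called 0.00665% and DESeq2 0.011% of all genes. Col28a1, Col25a1 and Col10a1 had an unadjusted p under 0.05, with values of -0.63 (SE 0.27), -1.74 (SE 0.77) and -2.56 (SE 1.15), against 2.03% of all genes. The member median was -0.34 against 0.00, with 8 of 41 values above 0 against 50.5% of all genes. Over omissions of 1 library the median ran from -0.55, without naive CybbKO replicate 1, to -0.21, without naive WT replicate 3, where 16 of 41 values lay above 0. It was -0.23 with 12 above 0 without naive CybbKO replicate 2. In this comparison fibroblast markers had a median of -0.32 with 8 of 10 below 0, osteoblast markers -0.68 with 8 of 8, smooth muscle and pericyte markers -0.79 with 5 of 7, chondrocyte markers -1.28 with 4 of 5 and salivary gland markers -1.36 with 4 of 5. Skeletal muscle markers stood at 0.63 with 7 of 8 above 0 and neutrophil markers at 0.70 with 6 of 8. The part of these cells in the collagen values was not tested. Salivary gland levels differed widely among naive WT libraries alone, as given under Other observations, and their median was not separated from that spread. Naive libraries did not overlap, with CybbKO lower, for Col4a6, Col11a1 and Col28a1, against 3.03% of all genes, and with CybbKO higher for 0 members, against 2.08%. Intervals were wide here too: Col1a1 had -0.70 (95% interval -1.55 to 0.15) and Col3a1 -0.72 (-1.54 to 0.11), while Col17a1 had -0.07 (-0.46 to 0.32).

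The interaction asks whether the ligature change differed between genotypes. It called 0 of 41 members in edgeR and in DESeq2, and 0% of all genes in both. Col10a1, Col11a1 and Col28a1 had an unadjusted p under 0.05, with values of 4.11 (SE 1.29), 1.13 (SE 0.47) and 0.86 (SE 0.37), that of Col10a1 on few counts, against 2.27% of all genes. The member median was 0.70 against 0.02 over all genes, with 29 of 41 values above 0 against 53.3%. Over omissions of 1 library it ran from 0.44, without naive WT replicate 3, to 0.89, without naive CybbKO replicate 1. Fibroblast markers had a median interaction of 0.48 with 10 of 10 above 0, osteoblast markers 0.39 with 7 of 8, chondrocyte markers 2.21 with 5 of 5, smooth muscle and pericyte markers 1.14 with 5 of 7, salivary gland markers 1.34 with 4 of 5 and neutrophil markers 0.68 with 6 of 8. Skeletal muscle markers had -0.75 with 1 of 8 above 0, and the part of these cells was not tested. The salivary gland value carries the same spread among naive WT libraries. The larger number of calls in CybbKO than in WT was therefore not shown to be a difference between genotypes. The genotype comparisons share their libraries with the ligature comparisons and add no independent samples to them.

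**Figure D5:**
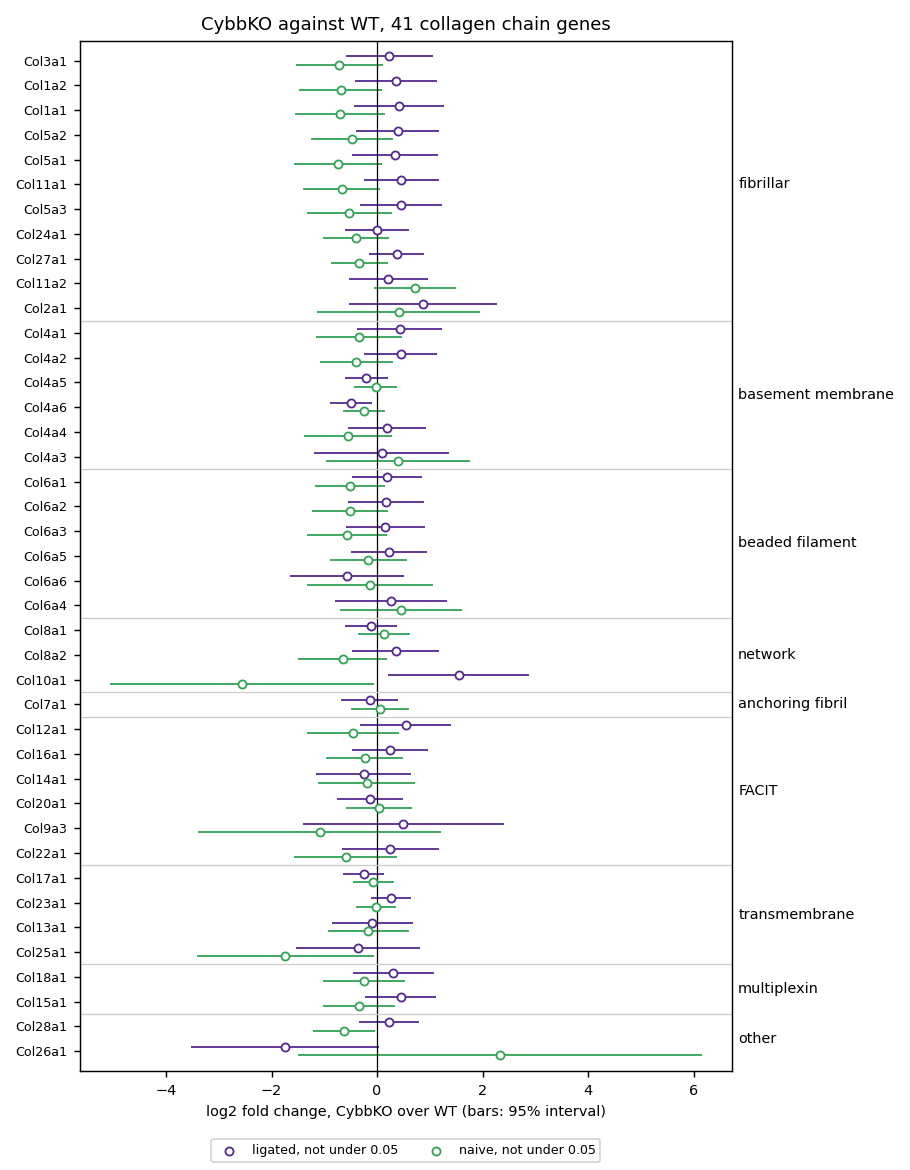
Log2 fold change of libraries labelled CybbKO over WT for the 41 members tested, by class, in ligated (purple) and naive (green) gingiva, with 95% intervals. All points are open, since 0 members passed an edgeR adjusted p of 0.05, and 29 ligated and 8 naive values lie above 0.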

How the data were processed

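Poly(A) RNA from gingiva was sequenced in 12 libraries (TruSeq Stranded mRNA kit, per the labels). The deposited table holds raw counts per Ensembl gene that the authors made from reads aligned to GRCm38 (mm10). The submitters' processing notes list FastQC 0.10.1 and HTSeq 0.10.0, while the study's methods name featureCounts with STAR. Of 21965 identifiers, 21939 matched a GENCODE M21 symbol and 26 did not.

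Counts were tested with edgeR 4.0.16 (quasi-likelihood, TMM scaling, filterByExpr) in R 4.3.3, in 1 fit of 12 libraries, with Benjamini-Hochberg adjustment over 15046 genes. The study's methods name DESeq2 (here 1.42.0), used as an alternative beside other scalings, filters and omissions of libraries. Levels are CPM, or CPM per kilobase of merged exons. The common coefficient of biological variation was 0.240. Depths ranged from 27958819 to 42613423 counts.

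Members named with values in every library were the 3 highest per kilobase in each class and every member called in any of 6 comparisons, and partner chains were named as pairs, which added Col4a6. Of each list of related genes, those 3 with the smallest p were named. Members, classes and lists were chosen with earlier results of these data known. Promoter sequences came from RefSeq (GRCm38.p6).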

Additional observations from a re-analysis of the deposited data

How the results depend on the processing

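The counts of called members were within 1.5 times the reported ones under DESeq2, DESeq2 size factors, library size alone, both low-count filters, a robust fit, and fits of 6 libraries, with 11 to 20 in WT against 14, 21 to 31 in CybbKO against 24 and 26 to 34 in the averaged comparison against 30. Counts under DESeq2 and in fits without the filter or without 1 library include Col9a1 where it passed. Both genotype comparisons and the interaction stayed at 0. The replicate numbers did not pair the libraries. Correlations were -0.23 to 0.28 over 18 same-numbered pairs, with a median of -0.13 and 2 over 0.1. Over 36 pairs of unlike number they were -0.34 to 0.43, with a median of 0.046 and 12 over 0.1. With the replicate number as a block (replicate block), 10 members were called in WT, 23 in CybbKO, 29 in the averaged comparison and 0 in the others.

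With 1 library left out, 1 to 19 members were called in WT, 20 to 27 in CybbKO and 28 to 31 in the averaged comparison. Scaled by library size alone, summed beaded filament chains in ligated WT stood at 656 CPM and FACIT chains in naive WT at 179 CPM, and the cause was not tested. Leaving out 1 library turned the sign of values that had not passed. Ranges over omissions were -0.16 to 0.51 for Col13a1 by ligature in WT, and -0.084 to 0.45 for Col7a1 and -0.039 to 0.37 for Col8a1 by ligature in CybbKO. Between genotypes in ligated tissue they were -0.078 to 0.59 for Col3a1, -0.016 to 0.45 for Col6a1 and -0.32 to 0.037 for Col8a1. In naive tissue they were -0.60 to 0.082 for Col4a1, -0.26 to 0.28 for Col7a1, -0.076 to 0.26 for Col8a1, -0.20 to 0.022 for Col17a1 and -0.68 to 0.086 for Col18a1. The interaction of Col7a1 ran from -0.42 to 0.12. Ranges were followed for only some of the 41 members, so this list is not complete and more values changed sign. Between genotypes in ligated tissue, members above 0 went from 29 to 23 without ligated CybbKO replicate 1. In naive tissue they went from 8 to 16 without naive WT replicate 3. Each comparison rests on 3 libraries per group, and counts of Col9a1, Col9a2, Col10a1, Col19a1, Col25a1 and Col26a1 were too few for a firm size.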

Other observations

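Markers of other tissue in the samples were read beside the collagen chains. Skeletal muscle markers summed to 537 to 2828 CPM over the 12 libraries, and 1 of 8, Myh2, was called higher with the ligature. Smooth muscle and pericyte markers had 1 of 7 called higher, Rgs5, and Schwann cell markers 0 of 6 in edgeR. Salivary gland markers ranged in naive WT from 62.9 CPM in replicate 1 to 29179 CPM in replicate 3, with 1 of 5 tested, Amy1, called lower. Over all genes 14.7% were called higher and 9.66% lower in this comparison. Their part in any collagen value was not tested.

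Genes that act on collagen were also read within each genotype. In WT 1 of 21 folding genes, 3 of 12 processing genes, 3 of 11 fibril regulators, 0 of 9 receptors and 2 of 6 proteases were called in edgeR, against 3.2% of all genes. In libraries labelled CybbKO the counts were 7, 8, 9, 5 and 6, against 13% of all genes. DESeq2 called 5, 6, 6, 2 and 5 in WT, against 8.97% of all genes it tested. It called 8, 10, 9, 6 and 6 in CybbKO, against 17.9%. Whether these counts differ between genotypes was not tested as such.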
